A study of Mus musculus with 22 samples.

Results

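The transcriptome of skin fibroblasts was followed over the first days after an operation alone. The 11 libraries described here are those labelled CTRL, out of 22 in the study, and were taken by their labels without use of any measured value. They comprised 4 libraries of day 1, 3 of day 2 and 4 of day 4. Per the labels, all mice of the study had the back skin cut near the tail, a tunnel opened under the skin towards the neck with forceps, and the cut stitched. Mice of the other 11 libraries, EXP, also carried an expander, a hydrogel placed under the skin near the neck, and CTRL mice carried none. Cells bearing CD31, CD45, CD117 or EpCAM, the surface proteins of vessel, blood, pigment and epithelial cells, were removed by sorting, and live cells with CD34 and PDGFRα were kept. Their RNA went into paired-end libraries for ultra-low input. Genotype, strain, age, sex and any pooling of animals are not given in the sources used here, and no unoperated skin was analysed here, so day 1 after the cut is the reference. The sort also sets which fibroblasts can be seen, since a cell that had lost CD34 or PDGFRα would not have been collected. The libraries of a day may also have been sorted or prepared together. The labels name no batch, so day and any such batch cannot be told apart.

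Skin wounding activates resident fibroblasts. They secrete chemokines and cytokines, lay down collagen and other matrix proteins, and can divide or take on contractile fibres. Secreted and matrix proteins are folded in the endoplasmic reticulum (ER) by chaperones such as BiP (Hspa5) and GRP94 (Hsp90b1) and by protein disulfide isomerases (Pdia genes). When the folding load rises, the sensors ATF6, IRE1 and PERK start the unfolded protein response. ATF6 and the XBP1 protein made downstream of IRE1 induce chaperone genes, and PERK acts through Atf4 and its targets Ddit3, Trib3 and Chac1.

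CTRL libraries held 21461294 to 27540738 counts, and 3 counts, taken as the smallest detectable level, correspond to 0.1089 to 0.1398 CPM, the count scaled to a common library total. Such floors cover counting error only, since PCR copies could not be told from separate molecules. The labels number the replicates of a group without saying how they were obtained, so p-values measure the spread between these libraries, which may be technical. In bulk RNA, fewer cells of a type and less RNA per cell cannot be told apart. The libraries also fell on 2 sides of a split that is not in the labels. A set of 192 genes varying together with Rnf10 had mean log2 CPM of 4.83 or more in 7 libraries of the study and of 4.13 or less in the rest. Replicates 1, 2 and 3 of day 1 and replicates 3 and 4 of day 4 were on the high side, whereas replicate 4 of day 1, all day 2 libraries and replicates 1 and 2 of day 4 were on the low side, so the split is uneven between days.

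Few genes passed the threshold over the days after surgery alone in the fit as reported. Of 17554 genes tested, 51 (0.291%) changed over the 3 days in the joint test, edgeR's quasi-likelihood test with Benjamini-Hochberg adjusted p under 0.05 (2490 genes had an unadjusted p under 0.05). Levels of 37 of these 51 genes were lower on both later days than on day 1, those of 13 were higher on both, and 1 went opposite ways. The largest difference from day 1 fell on day 2 for 33 of the 51 genes and on day 4 for 18. Day 2 against day 1 gave 52 calls (0.296% of the genes tested), 38 lower and 14 higher. Day 4 against day 1 gave 23 calls (0.131%), 13 lower and 10 higher. Only Calhm6 was called between day 4 and day 2 (0.0057%), where 1195 genes had an unadjusted p under 0.05. This gene was named after its values were seen, and its call was lost without any 1 of the 3 day 2 libraries. All day 2 libraries held at most 1 count of it, under the 3-count floor, beside a day 4 mean of 1.16 CPM. Both comparisons with day 1 use the same day 1 libraries, and 9 genes were called in both, 17.3% of the day 2 calls and 39.1% of the day 4 calls. In all, 72 genes were called in at least 1 of these tests.

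These counts varied with the libraries and settings used. Without day 2 replicate 1, or without day 2 replicate 2, 0 of the 52 day 2 calls remained, although all 52 kept their direction. Without day 1 replicate 1 the joint test gave 5 calls and day 4 against day 1 gave 2, and without day 4 replicate 3 they gave 92 and 68. Fitting the 11 CTRL libraries alone, with the filter and scaling also taken from them, gave 326 joint calls (2.03% of 16060 genes), which included 47 of the 51. That fit gave 343 day 2 calls (2.14%), 184 of them higher (1.15%) and 159 lower (0.99%), and 249 day 4 calls (1.55%), 158 of them higher (0.984%) and 91 lower (0.567%), so the balance towards lower levels did not hold there. Scaling by library totals in place of TMM gave 169 day 2 calls, 16 of them higher, and 39 day 4 calls, 5 of them higher. With a covariate for the library split, 22 of the 51 joint calls, 3 of the 52 day 2 calls (Fhl2, 1200007C13Rik and Scarb1, the last 2 named after their values were seen) and 20 of the 23 day 4 calls remained, and all calls of both comparisons kept their direction. The plot of calls by setting shows these counts.

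**Figure D1:**
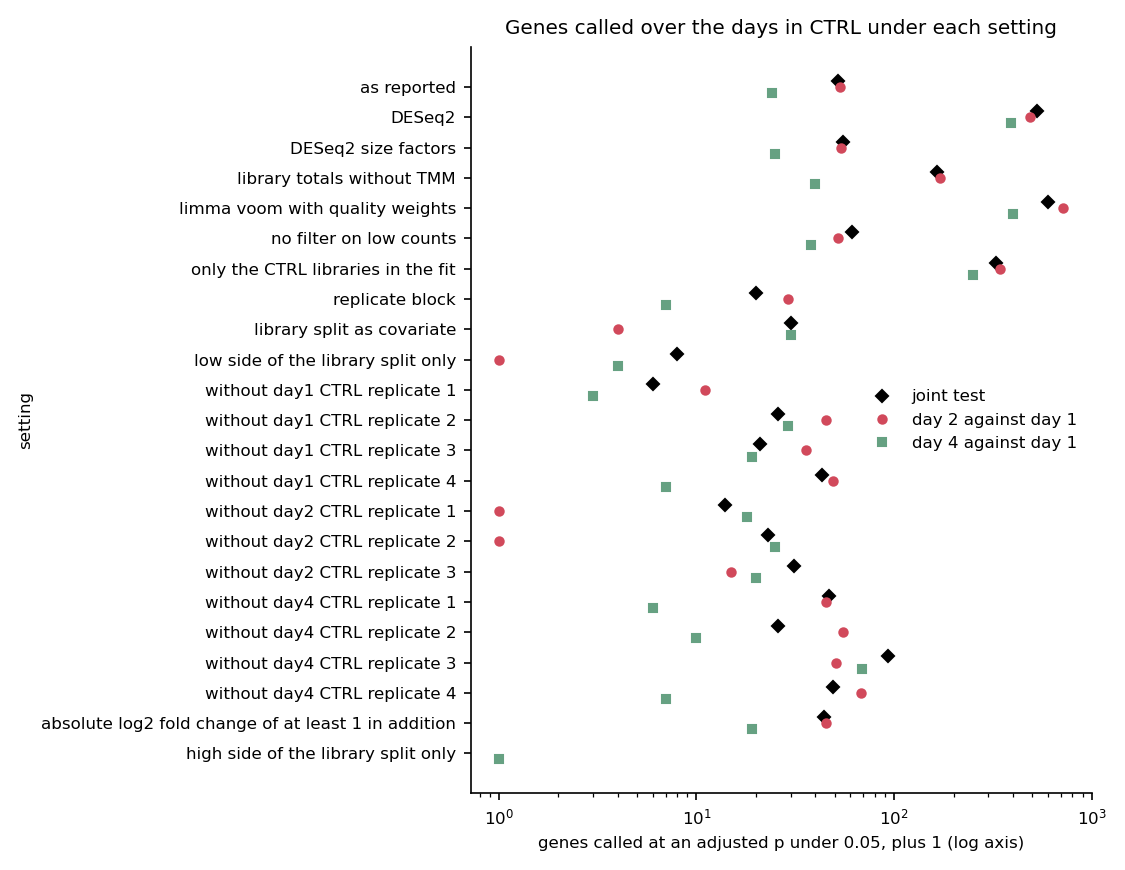
Number of genes called in CTRL libraries (adjusted p under 0.05, plus 1, log axis) under each setting (vertical axis), for the joint test (diamonds), day 2 against day 1 (circles) and day 4 against day 1 (squares). The settings shown gave between 0 and 719 day 2 calls, against 52 as reported.

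In the fit as reported, ER folding genes held more calls than any other of the lists examined, of which none other had over 2. Of 22 tested genes of ER folding and the unfolded protein response, 7 fell from day 1 to day 2, against 0.216% of all genes tested, and 0 rose. From day 1 to day 4, 3 fell, against 0.0741% of all genes, and 0 rose. The joint test called 8 of the 22: Creld2, Sdf2l1, Pdia4, Manf, Pdia6, Hsp90b1, Hyou1 and Dnajb11. The median log2 fold change of the 22 genes was -0.83 on day 2 and -0.53 on day 4, beside -0.01 and 0.01 over all genes tested. The list was chosen with earlier results of these data known.

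Creld2 encodes a secreted ER-stress-induced protein that assists folding of matrix proteins. Its levels in replicates 1 to 4 of day 1 were 264, 177, 255 and 258 CPM, on a total scaled by TMM as in all gene values below. They were 72.4, 80.9 and 101 CPM in replicates 1 to 3 of day 2 and 69.02, 90.3, 109 and 51.7 CPM in replicates 1 to 4 of day 4. No day 2 or day 4 library reached the lowest day 1 library. The log2 fold change was -1.49 ± 0.24 (SE) on day 2, with an edgeR adjusted p of 0.0139. On day 4 it was -1.58 ± 0.22, with an edgeR adjusted p of 0.0034. Sdf2l1, a partner of BiP that holds unfolded chains, stood at 139, 90.6, 135 and 126 CPM on day 1, 27.9, 39.4 and 46.5 on day 2 and 30.9, 37.4, 37.8 and 20.4 on day 4. It too had no overlap between day 1 and either later day. Its log2 fold changes were -1.69 ± 0.30 (edgeR adjusted p = 0.0204) and -1.96 ± 0.27 (edgeR adjusted p = 0.0034). The day 4 calls of both genes held in each fit with 1 CTRL library left out, at edgeR adjusted p of at most 0.0336. Their day 2 calls were lost without day 2 replicate 1 or 2, at edgeR adjusted p of up to 0.0877 and 0.118, and that of Sdf2l1 also without day 1 replicate 1. With a covariate for the library split both day 2 calls were lost (edgeR adjusted p = 0.0532 and 0.0753) and both day 4 calls held.

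Manf, a small secreted protein of the ER, fell on both later days, from 303, 212, 290.1 and 314 CPM on day 1 to 111, 126 and 157 on day 2 and 134, 159, 120.0 and 77.3 on day 4. Every later library lay below every day 1 library. The log2 fold changes were -1.09 ± 0.24 and -1.19 ± 0.22, with edgeR adjusted p of 0.049 and 0.0223. Both lost the threshold in several fits with 1 library left out, at edgeR adjusted p of up to 0.21 on day 2 (lost without day 1 replicates 1, 3 or 4, or day 2 replicates 1, 2 or 3, or day 4 replicates 1 or 3, the highest without day 2 replicate 1) and 0.0971 on day 4 (lost without day 1 replicates 1, 3 or 4, or day 4 replicates 1 or 4). With the covariate for the split the day 2 call was lost (edgeR adjusted p = 0.0753) and the day 4 call held.

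Of the disulfide isomerases, Pdia4 and Pdia6 fell on day 2, as did the chaperone GRP94, and Pdia3 did not pass (log2 difference -1.03, edgeR adjusted p = 0.0635). Pdia4 stood at 518, 333, 665 and 424 CPM on day 1, 145, 139.7 and 208 on day 2 and 235, 210.1, 262 and 153 on day 4. Pdia6 stood at 704, 501, 879 and 696 CPM on day 1, 222, 261 and 335 on day 2 and 308, 327, 328 and 235 on day 4. Hsp90b1 stood at 1095, 808, 1301 and 918 CPM on day 1, 346, 317 and 493 on day 2 and 609, 567, 598 and 372 on day 4. For all 3 genes, every day 2 and day 4 library lay below the lowest of day 1. Day 2 log2 fold changes were -1.56 for Pdia4, -1.35 for Pdia6 and -1.42 for Hsp90b1, with edgeR adjusted p of 0.0204, 0.0349 and 0.0214. Day 4 log2 fold changes were -1.17, -1.22 and -0.94 and did not pass (edgeR adjusted p = 0.0628, 0.0549 and 0.0865). Dnajb11, a co-chaperone of BiP, fell on day 2 by a log2 fold change of -0.92 (edgeR adjusted p = 0.0323). Hyou1, an ER chaperone of the HSP110 family, was called in the joint test alone, with log2 differences of -1.22 and -1.12 (edgeR adjusted p = 0.054 and 0.0681). That joint call was lost without day 1 replicates 1, 3 or 4, or day 2 replicates 1 or 2, or day 4 replicate 2 (edgeR adjusted p up to 0.135). Exons of Hsp90b1, Manf, Pdia4 and Pdia6 overlap those of other genes in GENCODE M21, and without knowledge of strand in the counting their reads may include those of neighbours. The day 2 calls were lost without day 2 replicate 1 or 2, and also without day 1 replicate 1 (Pdia4), day 1 replicates 1, 3 or 4, or day 2 replicate 3 (Pdia6), day 1 replicates 1 or 3 (Hsp90b1) and day 1 replicates 1, 3 or 4 (Dnajb11). The edgeR adjusted p then reached 0.141, 0.198, 0.141 and 0.209 in this order of genes. All 4 were lost with the covariate for the split, at 0.0855, 0.109, 0.0855 and 0.0855.

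Hspa5, the sensor-binding chaperone BiP, stood at 4025, 3787, 3585 and 3357 CPM on day 1, 2085, 1727 and 2360.0 on day 2 and 2324, 2677, 2441 and 1438 on day 4. Here as well the groups did not overlap, but the log2 differences of -0.84 ± 0.21 and -0.73 ± 0.19 did not pass (edgeR adjusted p = 0.0769 and 0.0964). Groups did not overlap, with day 2 below day 1, for 13 of the 22 genes, against 8.89% of all genes tested, and with day 2 above day 1 for 3, against 8.92%. The same held for day 4 below day 1 in 12 of the 22, against 4.7% of all genes, and day 4 lay above day 1 in 0, against 4.9%. Other lists also had groups without overlap. Day 2 lay below day 1 for 12 of 27 DNA replication genes, 10 of 28 mitosis genes and 9 of 25 dermal lineage markers, and above for 0. For 19 collagens day 2 lay below in 8 and above in 5. Day 4 lay below day 1 for 7 of the DNA replication genes and 1 of the mitosis genes, and above for 0. Genes of the PERK arm were not called and had higher fitted levels on day 2 than on day 1. Atf4, its transcription factor, stood at 200.2, 204, 220.3 and 261 CPM on day 1, 329.6, 394 and 335 on day 2 and 353, 394, 242 and 286 on day 4, a log2 difference of 0.67 on day 2 (edgeR adjusted p = 0.129). Log2 differences of its targets on day 2 were 0.58 for Ddit3, 0.95 for Trib3 and 0.90 for Chac1, none of them called. Xbp1, Herpud1 and Dnajb9 differed by -0.13, 0.10 and -0.09 on the log2 scale. Edem1, which helps clear misfolded glycoproteins, varied with the library split: it stood at 156, 156, 129 and 29.8 CPM on day 1, 51.4, 28.7 and 25.9 on day 2 and 22.7, 37.6, 141 and 146 on day 4.

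**Figure D2:**
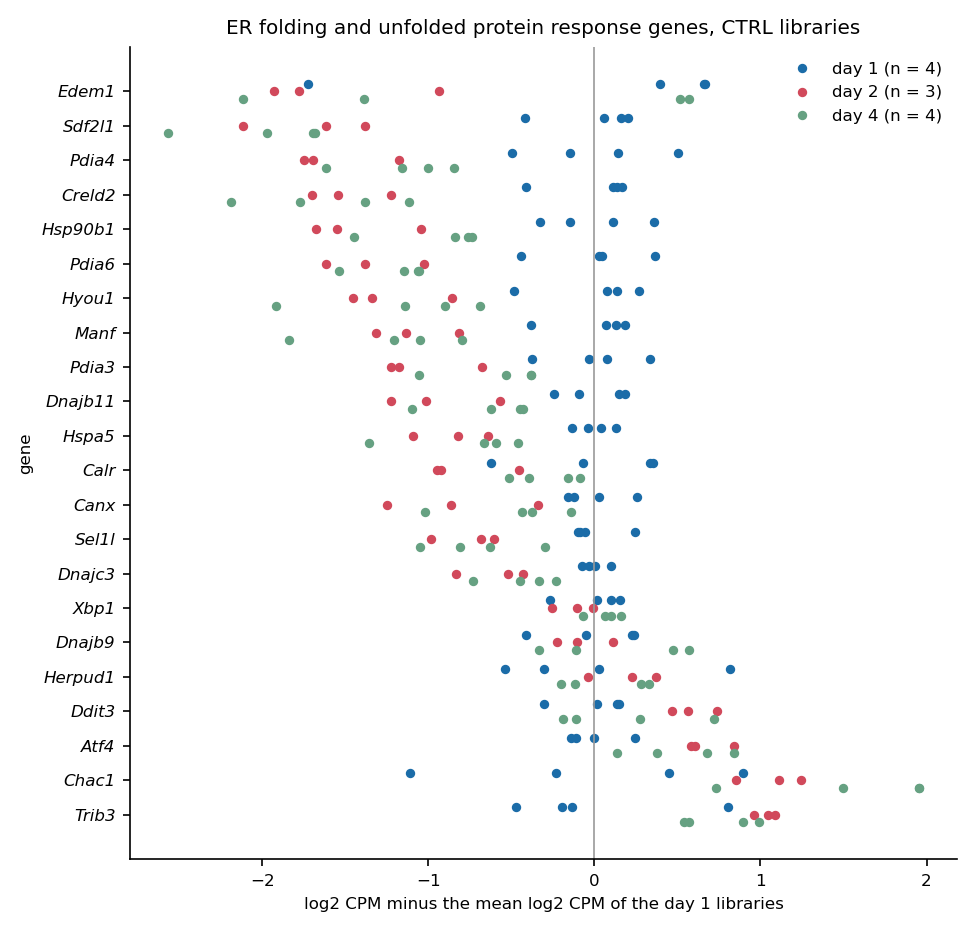
Log2 CPM of each of the 22 ER genes (vertical axis) in each CTRL library, less the mean log2 CPM of the 4 day 1 libraries (horizontal axis), with days in different colours. For 13 genes all day 2 points lie left of all day 1 points, while Atf4, Ddit3, Chac1 and Trib3 lie at the foot with day 2 points to the right of 0.

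Summed over the 22 genes, the libraries of day 1 held 11946, 9692, 13073 and 10727 CPM of the library total, those of day 2 held 5076, 5083 and 6217, and those of day 4 held 6755, 7725, 6894 and 4794. Day 1 stood apart from both later days, and day 2 and day 4 overlapped. The day 1 library on the low side of the split, replicate 4, held 10727 CPM, and the day 4 libraries on the high side, replicates 3 and 4, held 6894 and 4794. With the split as a covariate, the list's median log2 fold change was -0.85 on day 2 and -0.54 on day 4, and 0 and 3 members fell at the threshold. Among low-side libraries alone the medians were -0.75 and -0.44, and among high-side libraries alone the day 4 median was -0.58, each with 0 calls. Over 20 alternatives the day 2 median stayed between -1.06 and -0.73, and over 21 the day 4 median stayed between -0.71 and -0.44. Calls of lower members ranged from 0 to 14 and from 0 to 10. Members were called higher only with DESeq2 (1 on day 2 and 1 on day 4) and with limma voom (2 on day 2 and 1 on day 4). Scaling by library totals in place of TMM lowered the median of all genes by 0.22 on day 2 and by 0.17 on day 4, and gave list medians of -1.06 and -0.71.

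ATF6 and XBP1 act on the ER stress element (ERSE), spelled CCAAT, then any 9 bases, then CCACG. Both strands of RefSeq promoters of build GRCm38.p6, from 250 bases before to 50 after the gene start, were searched for it. It occurred in 0.119% of 32851 promoters, in 20 of 10994 tested genes with a promoter (0.182%), and in 7 of the 20 ER genes with one: Hspa5, Hsp90b1, Calr, Canx, Pdia6, Dnajc3 and Creld2. Many members of the list are well-known targets of these factors, so the count is a description. The 250 bases before the start are shown 5′ to 3′ on the gene's strand for 4 genes that were called lower and hold a match and for Hspa5, with matches on either strand in capitals. Sdf2l1, which holds no match, is shown for contrast.
Creld2, chr15:88819396-88819645, plus strand: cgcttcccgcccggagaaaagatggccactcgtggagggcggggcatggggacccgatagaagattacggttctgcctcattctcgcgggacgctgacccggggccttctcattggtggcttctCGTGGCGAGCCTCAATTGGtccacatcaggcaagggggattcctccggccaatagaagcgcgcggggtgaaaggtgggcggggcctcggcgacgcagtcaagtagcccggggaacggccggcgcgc
Hsp90b1, chr10:86705445-86705694, minus strand: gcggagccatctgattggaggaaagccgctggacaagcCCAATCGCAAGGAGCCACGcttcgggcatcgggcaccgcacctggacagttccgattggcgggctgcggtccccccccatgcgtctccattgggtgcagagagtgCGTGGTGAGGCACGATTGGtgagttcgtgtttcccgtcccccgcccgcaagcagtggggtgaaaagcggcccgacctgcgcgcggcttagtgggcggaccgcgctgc
Pdia6, chr12:17266339-17266588, plus strand: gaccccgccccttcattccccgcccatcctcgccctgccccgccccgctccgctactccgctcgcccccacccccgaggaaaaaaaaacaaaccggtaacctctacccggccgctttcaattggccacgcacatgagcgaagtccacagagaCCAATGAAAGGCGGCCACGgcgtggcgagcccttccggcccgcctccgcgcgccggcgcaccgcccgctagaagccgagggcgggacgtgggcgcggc
Hspa5, chr2:34771840-34772089, plus strand: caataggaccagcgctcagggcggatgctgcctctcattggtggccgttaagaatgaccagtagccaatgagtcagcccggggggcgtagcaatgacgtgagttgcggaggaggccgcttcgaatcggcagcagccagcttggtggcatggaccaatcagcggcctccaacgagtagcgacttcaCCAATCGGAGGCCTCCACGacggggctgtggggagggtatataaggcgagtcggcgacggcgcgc
Derl3, chr10:75893148-75893397, plus strand: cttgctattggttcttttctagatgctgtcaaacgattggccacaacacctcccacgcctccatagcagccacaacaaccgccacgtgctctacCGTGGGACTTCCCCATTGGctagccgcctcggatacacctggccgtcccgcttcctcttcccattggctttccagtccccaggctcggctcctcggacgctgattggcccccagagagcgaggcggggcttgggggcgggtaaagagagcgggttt
Sdf2l1, chr16:17132384-17132633, minus strand: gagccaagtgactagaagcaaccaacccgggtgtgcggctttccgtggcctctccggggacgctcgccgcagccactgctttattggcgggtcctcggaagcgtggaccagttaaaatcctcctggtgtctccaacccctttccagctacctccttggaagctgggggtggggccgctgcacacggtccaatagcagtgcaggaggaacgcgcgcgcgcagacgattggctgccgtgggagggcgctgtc
Relative to the gene start, the matches lay at -126 to -108 in Creld2, -212 to -194 and -107 to -89 in Hsp90b1, -98 to -80 in Pdia6, -65 to -47 in Hspa5 and -156 to -138 in Derl3. A related element, ERSE-II, spelled ATTGG, any base, then CCACG, occurred in 0.0365% of promoters and in 2 of the 20 ER genes, Dnajb11 and Herpud1. The core of the unfolded protein response element, TGACGTGG, occurred in 0.676% of promoters and in 0 of the 20. At that share, 20 genes are too few to read a count of 0. Creld2, Hsp90b1 and Pdia6 were called lower and hold an ERSE match, and Sdf2l1, Pdia4 and Dnajb11 were called lower and hold none. Manf and Hyou1, also called, had no promoter in the set searched. Hspa5, Calr, Canx and Dnajc3 hold one and were not called, with day 2 log2 differences of -0.84, -0.81, -0.78 and -0.58. All 7 list genes with a match thus had lower fitted levels on day 2, as did 17 of the 22 genes of the list. A relation between match and course was not tested. A match is a run of letters in these windows and no measure of binding.

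Derl3, which draws misfolded proteins out of the ER and was not on the list, fell from day 1 to day 4 and was chosen for mention after its values were seen. It stood at 3.87, 0.932, 2.76 and 0.843 CPM on day 1, 0.498, 0.522 and 0.629 on day 2 and 0, 0.129, 0.0419 and 0.0866 on day 4. All day 4 libraries held 3 counts or fewer, so the day 1 mean was at least 15.9-fold higher than the 3-count floor of a day 4 library (edgeR adjusted p = 0.0179, and up to 0.0941 without day 1 replicate 1, or day 4 replicates 1 or 4). Plasma cells also express Derl3 strongly, and their markers Mzb1 and Tnfrsf17 were at 0 in all CTRL libraries, with Jchain at most 0.147 and Igkc at most 0.0412 CPM. Sdc1, a further plasma cell marker that other cells also express, stood at 34.6 to 70.04 CPM.

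Among the called genes were 5 whose products work with HSP90 or HSP70, brought together after their values were seen and not as a list that was tested. Fkbp4, an immunophilin that joins HSP90 to steroid receptors, stood at 116, 109, 96.7 and 99.1 CPM on day 1, 42.3, 49.9 and 47.9 on day 2 and 53.01, 45.8, 53.4 and 23.7 on day 4. No later library reached the day 1 range. Its log2 fold changes were -1.17 ± 0.24 on day 2 and -1.25 ± 0.21 on day 4 (edgeR adjusted p = 0.0332 and 0.0179). Ahsa1, which activates the ATPase of HSP90, fell by log2 fold changes of -0.66 and -0.72 (edgeR adjusted p = 0.0441 and 0.0223). Stip1, which passes clients from HSP70 to HSP90, stood at 100.2, 121, 74.2 and 72.5 CPM on day 1, 51.6, 31.2 and 45.2 on day 2 and 61.7, 70.2, 45.4 and 58.2 on day 4, and fell on day 2 by a log2 fold change of -1.11 (edgeR adjusted p = 0.0204). St13, an HSP70-interacting protein, fell on day 2, with a log2 fold change of -0.72 (edgeR adjusted p = 0.0233). Fkbp5, the counterpart of Fkbp4 and a target of glucocorticoids, stood at 30.9, 18.8, 14.7 and 14.4 CPM on day 1 and 7.17, 4.65 and 6.02 on day 2, and fell, with a log2 fold change of -1.72 (edgeR adjusted p = 0.0323). Of 16 tested cytosolic heat shock proteins, which the list names as the chaperones themselves, 0 were called in any comparison, and their medians were 0.04 and -0.11. Hspb1, a small heat shock protein, had 34.3, 28.1, 23.1 and 17.5 CPM on day 1 and 3.88, 7.47 and 7.82 on day 2, a log2 difference of -2.01 (edgeR adjusted p = 0.0663). A heat shock element was spelled as GAA, TTC and GAA in turn with any 2 bases between them. It occurred in 0.597% of promoters and in 0 of the 34 genes with a promoter that were called lower. At that share, 34 genes are too few to read a count of 0. Each of these day 2 calls was lost without day 2 replicate 1 or 2. They were also lost without day 1 replicates 1, 2 or 3, or day 2 replicate 3 (Fkbp4), day 1 replicates 1, 2 or 4, or day 2 replicate 3, or day 4 replicate 1 (Ahsa1), day 1 replicate 1, or day 2 replicate 3 (Stip1), day 1 replicate 2, or day 2 replicate 3 (St13) and day 1 replicate 1, or day 2 replicate 3 (Fkbp5). The day 4 call of Fkbp4 was lost without day 1 replicates 1 or 4, or day 4 replicate 2 and that of Ahsa1 without day 1 replicates 1, 2 or 4, or day 4 replicates 1 or 4, at edgeR adjusted p of up to 0.0941 and 0.0971. With the covariate for the split the 5 day 2 calls were lost, at 0.0914 (Fkbp4), 0.0855 (Ahsa1), 0.0753 (Stip1), 0.0753 (St13) and 0.129 (Fkbp5), and both day 4 calls held.

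Several secreted, matrix and signalling genes were high on day 1 alone. Prg4 encodes lubricin, a glycoprotein of joint and fascial surfaces. It stood at 144, 44.6, 75.9 and 79.5 CPM on day 1, 7.52, 3.92 and 10.3 on day 2 and 18.1, 9.14, 8.38 and 13.3 on day 4. The lowest day 1 library was above the highest later one. Prg4 fell by log2 fold changes of -3.57 ± 0.62 on day 2 and -2.82 ± 0.53 on day 4 (edgeR adjusted p = 0.0204 and 0.0331). The day 2 call was lost without day 1 replicate 1, or day 2 replicates 1, 2 or 3, at an edgeR adjusted p of up to 0.134. The day 4 call was lost in 8 of 11 fits with 1 library left out (day 1 replicates 1, 3 or 4, or day 2 replicate 1, or day 4 replicates 1, 2, 3 or 4), at an edgeR adjusted p of up to 0.17. Both were lost with the covariate for the split (edgeR adjusted p = 0.0753 and 0.0523). Slpi, a secreted inhibitor of leukocyte proteases, stood at 35.6, 38.3, 66.2 and 56.2 CPM on day 1, 5.33, 3.45 and 10.2 on day 2 and 5.47, 4.85, 11.3 and 8.22 on day 4, again without overlap. It was called in the joint test alone, with log2 differences of -2.95 and -2.72 (edgeR adjusted p = 0.0514 and 0.0566). Its joint call was lost without day 1 replicates 1 or 3, or day 2 replicates 1 or 2, or day 4 replicate 2 (edgeR adjusted p up to 0.0783). Exons of Prg4 and Slpi overlap those of other genes in M21, so their counts are uncertain.

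Fhl2, a LIM-domain protein of stress fibres and the nucleus, stood at 8.82, 3.77, 10.4 and 4.67 CPM on day 1, 0.299, 0.679 and 0.809 on day 2 and 2.13, 0.901, 1.51 and 2.900 on day 4. It fell on day 2 by a log2 fold change of -3.52 ± 0.49 (edgeR adjusted p = 0.00772), and the day 4 difference of -1.90 did not pass (edgeR adjusted p = 0.0565). Fmo1, a flavin monooxygenase that oxidises foreign compounds, fell on both days, from 70.97, 62.9, 58.3 and 70.7 CPM on day 1 to 24.1, 16.6 and 20.4 on day 2 and 33.4, 17.1, 29.1 and 31.4 on day 4. Its log2 fold changes were -1.69 ± 0.26 and -1.24 ± 0.23 (edgeR adjusted p = 0.0129 and 0.0248). For both genes day 1 did not overlap either later day. The joint test called both in all 11 fits without 1 library. The day 2 calls were lost without day 2 replicate 1 or 2, at edgeR adjusted p of up to 0.0859 for both, and the day 4 call of Fmo1 was lost without day 1 replicates 1 or 4, or day 4 replicates 1, 2 or 4, at up to 0.103. With the covariate for the split the day 2 call of Fhl2 held (edgeR adjusted p = 0.0411), that of Fmo1 was lost (0.0532) and the day 4 call of Fmo1 held.

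A further set was lowest on day 2. F3 encodes tissue factor, which starts clotting. Its levels were 57.8, 77.5, 96.6 and 101 CPM on day 1, 10.6, 10.3 and 7.91 on day 2 and 71.5, 33.9, 28.3 and 38.6 on day 4. The day 2 libraries lay below all others, while day 1 and day 4 overlapped. F3 fell on the log2 scale, with a fold change of -3.11 ± 0.56 on day 2 (edgeR adjusted p = 0.0214), and on day 4 the log2 difference from day 1 was -0.95 (edgeR adjusted p = 0.371). Tfpi, the inhibitor of the tissue factor pathway, also fell on day 2, from 42.7, 46.5, 61.8 and 47.02 to 24.9, 20.01 and 22.5 CPM, a log2 fold change of -1.14 (edgeR adjusted p = 0.0204). Tfpi was chosen for mention after its values were seen. Its call was lost without day 2 replicates 1, 2 or 3 (edgeR adjusted p up to 0.141), and with the covariate for the split the calls of F3 and Tfpi were both lost (edgeR adjusted p = 0.0753 and 0.0843).

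Postn encodes periostin, a matricellular protein of healing wounds. It varied widely within days, at 846, 233, 757 and 392 CPM on day 1, 96.6, 53.5 and 161 on day 2 and 194, 146, 419 and 252 on day 4. Only the day 2 libraries kept apart from day 1. Postn fell on day 2, with a log2 fold change of -2.42 ± 0.48 (edgeR adjusted p = 0.0323). The call was lost with a covariate for the split, where the log2 difference was -1.90 (edgeR adjusted p = 0.117), and in the fit of CTRL libraries alone (edgeR adjusted p = 0.0515). Rgs4, a brake on G-protein signalling, had 22.01, 11.4, 26.9 and 23.3 CPM on day 1, 2.84, 2.298 and 3.55 on day 2 and 4.402, 2.06, 9.89 and 9.004 on day 4, a day 2 log2 fold change of -2.85 (edgeR adjusted p = 0.0323). Fmo2, related to Fmo1, had 41.96, 20.7, 43.7 and 22.5 CPM on day 1, 3.19, 1.41 and 1.03 on day 2 and 20.8, 9.74, 6.04 and 7.79 on day 4, a log2 fold change of -4.10 (edgeR adjusted p = 0.0349). Fzd4, a Wnt receptor, had 16.7, 6.27, 30.9 and 7.43 CPM on day 1 and 1.29, 2.46 and 1.71 on day 2, a log2 fold change of -3.07 (edgeR adjusted p = 0.049). Chl1, a cell adhesion protein related to L1, fell, with a log2 fold change of -2.25 (edgeR adjusted p = 0.0323). All of these ran lower on day 2 than on day 1 in every library, and none was called on day 4. These calls too were lost in several fits with 1 library left out. Those of F3, Postn and Rgs4 were also lost without day 2 replicate 3 (F3), day 1 replicates 1 or 3, or day 2 replicate 3 (Postn) and day 1 replicates 1 or 3, or day 2 replicate 3 (Rgs4), those of Fmo2, Fzd4 and Chl1 without day 1 replicates 1 or 3, or day 2 replicate 3 (Fmo2), day 1 replicates 1 or 3, or day 2 replicate 3, or day 4 replicates 1, 2 or 3 (Fzd4) and day 1 replicates 1 or 3, or day 2 replicate 3 (Chl1). Without day 2 replicate 1 or 2 the edgeR adjusted p rose to at most 0.134 for F3, 0.182 for Postn, 0.172 for Rgs4, 0.191 for Fmo2, 0.201 for Fzd4 and 0.145 for Chl1. These calls were lost with the covariate for the split as well, at 0.0855 (Rgs4), 0.117 (Fmo2), 0.145 (Fzd4) and 0.106 (Chl1).

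**Figure D3:**
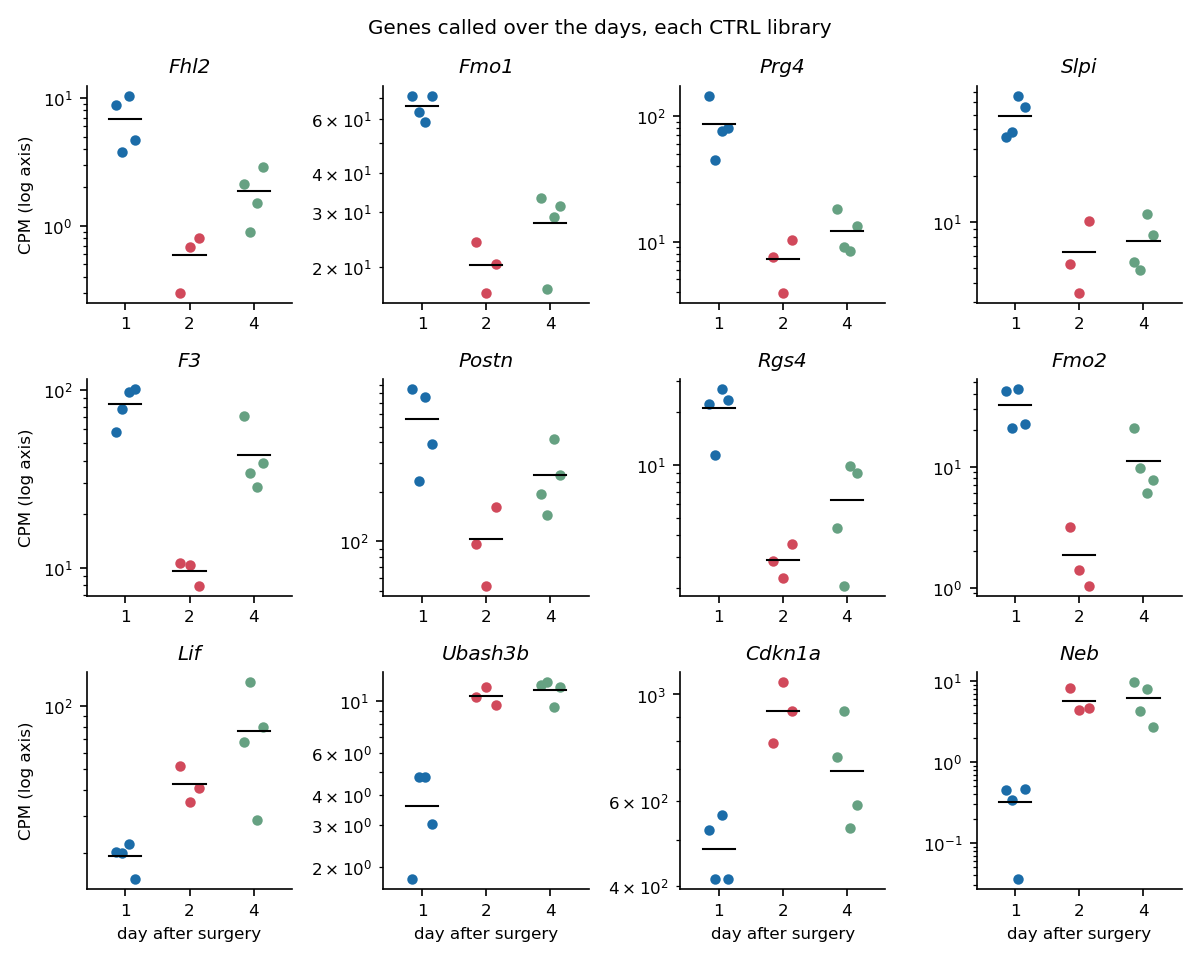
CPM (log axes) of 12 genes in each CTRL library (points) by day after surgery, with the arithmetic mean of each day as a line. Fhl2, Fmo1, Prg4, Slpi, F3, Postn, Rgs4 and Fmo2 are lower in every day 2 library than in any day 1 library, and Lif, Ubash3b, Cdkn1a and Neb are higher.

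Fewer genes rose than fell in the fit as reported, 0.0798% of those tested on day 2 and 0.057% on day 4. The fit of the CTRL libraries alone had more rises than falls, as given above. Lif, a cytokine of the interleukin 6 family, stood at 20.2, 19.9, 22.01 and 14.9 CPM on day 1, 51.7, 35.1 and 40.6 on day 2 and 67.8, 130.3, 28.6 and 79.6 on day 4. All later libraries were above all day 1 libraries, with a wide spread on day 4. Lif rose by 1.99 ± 0.32 on day 4 (edgeR adjusted p = 0.0179), and the day 2 difference of 1.14 did not pass (edgeR adjusted p = 0.14). Without day 1 replicate 1, or without day 1 replicate 4, the day 4 call of Lif was lost, at an edgeR adjusted p of up to 0.0941. It was the only called gene of 18 tested cytokines and acute-phase proteins, whose medians were -1.19 on day 2 and 0.00 on day 4.

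Ubash3b, a phosphatase that dampens receptor kinase signalling, stood at 1.77, 4.79, 4.76 and 3.03 CPM on day 1, 10.4, 11.4 and 9.62 on day 2 and 11.7, 11.9, 9.43 and 11.4 on day 4. It was higher in each later library and rose by 1.54 and 1.63 on the log2 scale (edgeR adjusted p = 0.0323 and 0.0223). Cdkn1a, the cyclin-dependent kinase inhibitor p21, stood at 525, 414, 563 and 414 CPM on day 1, 794, 1060.0 and 922 on day 2 and 741, 923, 529 and 589 on day 4. Its day 2 libraries were above all of day 1, and it rose on day 2 by 0.95 ± 0.19 (edgeR adjusted p = 0.0345). Its exons overlap those of another gene in M21. Tac1, the precursor of substance P, had 8.04, 14.5, 18.04 and 16.1 CPM on day 1 and 32.2, 52.6 and 32.1 on day 2, a rise of 1.46 (edgeR adjusted p = 0.0233). The day 4 call of Ubash3b was lost without day 1 replicates 1 or 4, or day 4 replicates 1, 2 or 4 (edgeR adjusted p up to 0.0971). Each of these day 2 calls was lost without day 2 replicate 1 or 2, and also without day 1 replicates 1 or 4, or day 2 replicate 3 (Ubash3b), day 1 replicates 1, 2 or 4, or day 2 replicate 3 (Cdkn1a) or day 1 replicate 1 (Tac1), at edgeR adjusted p of up to 0.145 (Ubash3b), 0.191 (Cdkn1a) and 0.172 (Tac1). With the covariate for the split they were lost at 0.0914, 0.18 and 0.0855, and the day 4 call of Ubash3b held. On day 4, Abi3bp, a matrix protein, rose by 0.86 on the log2 scale (edgeR adjusted p = 0.0331, and up to 0.141 without day 1 replicates 1, 3 or 4, or day 2 replicate 1, or day 4 replicates 1, 2 or 4). Pkdcc, a secreted kinase, rose on day 4 by 1.57 (edgeR adjusted p = 0.0266, and up to 0.121 without day 1 replicates 1, 2, 3 or 4, or day 4 replicates 1, 2 or 4).

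Neb, which encodes the muscle filament protein nebulin, rose from 0.453, 0.339, 0.0358 and 0.46 CPM on day 1 to 8.12, 4.34 and 4.67 on day 2 and 9.63, 4.29, 8.05 and 2.68 on day 4. Its lowest later library was above the highest of day 1. The log2 fold changes were 4.14 ± 0.69 and 4.25 ± 0.67 (edgeR adjusted p = 0.0158 and 0.0174), and the day 4 call was lost without day 1 replicate 1 alone (edgeR adjusted p = 0.0879). Of 12 skeletal muscle markers, Tnnc2, Myod1 and Pax7 were at 0 in all CTRL libraries, and Myh2 and Myh4 were at most 0.0466 and 0.0399 CPM. The 12 summed to 1.85 to 5.71 CPM on day 1, 5.36 to 7.22 on day 2 and 5.45 to 9.38 on day 4, mostly from Des, which smooth muscle also expresses. Exons of Neb overlap another gene in M21. Itga2b, the integrin subunit of platelets and megakaryocytes, rose on day 2 from 12.6, 7.29, 13.6 and 6.67 to 23.4, 29.5 and 30.5 CPM, by 1.47 on the log2 scale (edgeR adjusted p = 0.0323). The platelet markers Pf4, Ppbp, Gp9 and Gp1ba stayed at or below 0.165, 0.0412, 0.206 and 0.254 CPM in all CTRL libraries. Itgb3, on the same marker list and the integrin partner of Itga2b, stood at 47.4 to 102 CPM. Both day 2 calls were lost without day 2 replicate 1 or 2, and that of Itga2b also without day 1 replicates 1, 2 or 4, or day 2 replicate 3, at edgeR adjusted p of up to 0.0859 for Neb and 0.141 for Itga2b. Under the split covariate they were lost at 0.0753 and 0.0753, and the day 4 call of Neb held.

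Among pathways of wound repair, most lists held 0 called members in the fit as reported. The fit of the 11 CTRL libraries alone called more. On day 2 it called 4 of 27 DNA replication genes, 4 of 19 collagens and 3 of 15 chemokines lower. It also called 5 of 24 Wnt pathway genes and 2 of 22 interferon-stimulated genes lower, and 0 members of these 5 lists higher. On day 4 it called 2 of 15 NF-kB genes higher and 0 lower. The counts that follow are for the fit as reported. All 28 mitosis genes had a lower fitted level on both later days than on day 1, with medians of -1.75 and -1.34, and 0 passed on either day. Ccna2, a cyclin of S and G2 phases, had 5.81, 6.82, 15.1 and 4.52 CPM on day 1, 0.548, 1.201 and 2.61 on day 2 and 4.88, 3.22, 1.55 and 1.17 on day 4 (edgeR adjusted p = 0.117 and 0.234). Among low-side libraries alone the day 4 median of the mitosis list was 0.11, the opposite sign. There day 1 is replicate 4 only. That library had the lowest mitosis sum of day 1, 67.6 CPM beside 99.4 to 254 in the others. Of 27 genes of DNA replication, 0 passed and 23 and 22 were lower, with medians of -0.65 and -0.41. Mcm5, a subunit of the replicative helicase, had 9.97, 15.4, 14.2 and 12.3 CPM on day 1 and 1.39, 2.46 and 4.36 on day 2, without overlap (log2 difference -2.24, edgeR adjusted p = 0.0865).

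Of 22 interferon-stimulated genes, 0 passed, with medians of -0.69 and -0.73. Oas1a, an antiviral enzyme switched on by double-stranded RNA, had 11.3, 6.696, 12.6 and 2.95 CPM on day 1, 0.498, 1.097 and 0.359 on day 2 and 0.629, 0.214, 2.01 and 1.299 on day 4. Its groups did not overlap, yet the edgeR adjusted p were 0.0781 and 0.0956. Oas1a has close relatives that may share its reads. Of 15 chemokines for neutrophils and monocytes, 0 passed, with medians of -0.62 on day 2 and 0.20 on day 4. Cxcl12, the ligand of CXCR4, had 234 to 829.7 CPM on day 1, 93.98 to 107 on day 2 and 138 to 321 on day 4, and its day 2 log2 difference of -2.33 just missed the threshold (edgeR adjusted p = 0.0514). Cxcl1, a neutrophil attractant, had 687 to 1643 CPM on day 1, 255 to 323 on day 2 and 445 to 860.3 on day 4 (day 2 edgeR adjusted p = 0.0635). All 15 NF-kB targets and feedback genes were above their day 1 level on day 4 with a median of 0.61, and 0 passed. Icam1, a ligand for leukocyte integrins, had 406 to 529 CPM on day 1 and 626 to 1384 on day 4 (edgeR adjusted p = 0.071).

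Matrix genes were also largely uncalled in the fit as reported. Of 19 fibrillar and associated collagens 0 passed, with medians of -0.05 and 0.01. Col1a1, Col1a2 and Col3a1 together took 22.9 ± 2.19% of all counts on day 1 (SD, n = 4), 28.6 ± 1.92% on day 2 (n = 3) and 26.0 ± 3.59% on day 4 (n = 4). All day 2 shares were above all day 1 shares, but a difference over the 3 days did not pass in an exact permutation test over 11550 assignments (p = 0.0745, 0.149 adjusted over 4 such values). The 50 most abundant genes took 40.7 ± 2.52%, 47.6 ± 1.58% and 44.6 ± 2.47% of counts on the 3 days (SD, n = 4, 3 and 4), with an exact permutation p of 0.0142, or 0.0568 adjusted. Of 21 matricellular genes only Postn passed. Myofibroblast contractile genes had medians of -0.53 and -0.17 with 0 of 15 called. Small leucine-rich proteoglycans had medians of 0.05 and 0.54 with 0 of 10 called, and decorin (Dcn) ranged from 10110.0 to 12720.0 CPM on day 1 and from 15890.0 to 27100.0 on day 4 (edgeR adjusted p = 0.0936).

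**Figure D4:**
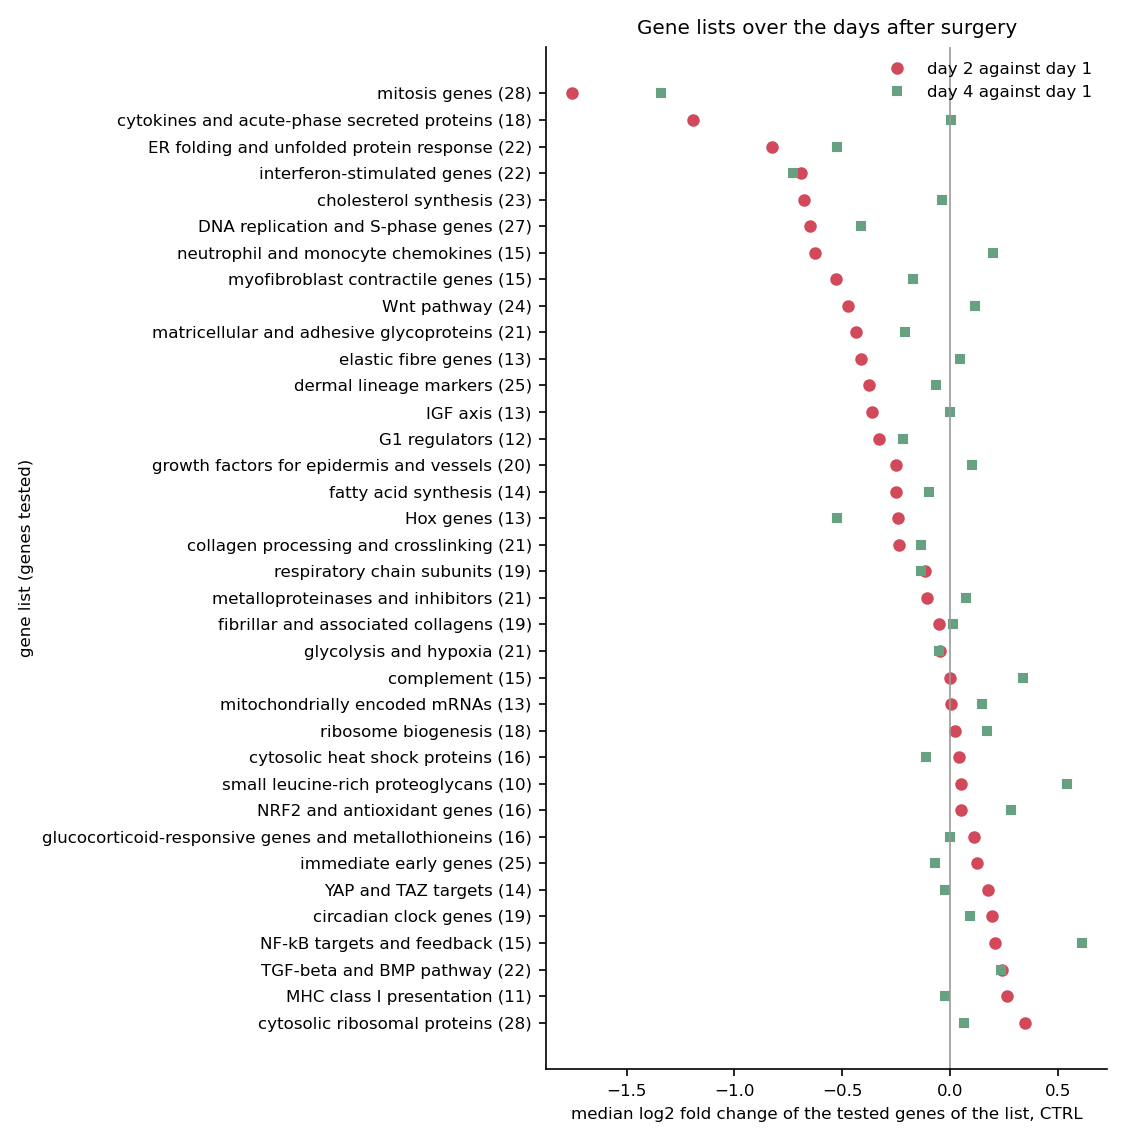
Median log2 fold change of the tested genes of each of 36 lists (vertical axis, number of genes tested in brackets) in CTRL libraries, for day 2 against day 1 (circles) and day 4 against day 1 (squares). Medians of all genes tested were -0.01 and 0.01, and called genes are few in most lists, so a median here is a description.

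Sort markers were as the labels give them. Pdgfra had 227 to 414 CPM and Cd34 1275 to 2348 CPM over the CTRL libraries, and neither was called between days. Ptprc (CD45) was at most 0.186 and Kit (CD117) at most 0.201 CPM of the library total. Pecam1 (CD31) was at most 2.16 and Epcam at most 1.89 CPM. Some markers of other cells moved with day. Pericyte and smooth muscle markers summed to 183 to 312 CPM on day 1, 390 to 441 on day 2 and 276 to 319 on day 4, with Rgs5 at most 3.79 and Notch3 at most 1.99. Most of that sum was Ndufa4l2, which had 124 to 227 CPM on day 1, 311 to 354 on day 2 and 205 to 244 on day 4. Macrophage and monocyte markers summed to 63.4 to 106 CPM on day 1, 125 to 147 on day 2 and 108 to 133 on day 4, with Ptprc as given above. Csf1r made up most of it, at 30.5 to 82.6 CPM on day 1, 91.4 to 127 on day 2 and 91.2 to 118 on day 4. Mature adipocyte markers summed to 15.4 to 43.3, 11.7 to 16.1 and 5.12 to 10.05 CPM, with Adipoq at most 1.72 and Lep at 0. Of 9 tested endothelial markers, 8 had lower fitted levels on day 2 than on day 1 (median -3.30), and all 9 had higher levels on day 4 than on day 2 (median 3.06). Tek had 2.71 to 6.22 CPM on day 1, 0.16 to 0.55 on day 2 and 2.39 to 6.12 on day 4, while Cdh5 was at most 0.161 CPM. Their sum, mostly Plvap, was 23.5 to 49.2, 22.5 to 47.7 and 42.7 to 69.9 CPM. Of 9 tested adipocyte markers, 8 were lower on day 2 (median -3.83) and 8 on day 4 (median -3.24). Keratinocyte markers varied from 4.79 to 56.7 CPM without an order of days. None of these lists held a called gene in the fit as reported. On day 2 against day 1, the fit of the 11 CTRL libraries alone called 1 endothelial and 1 adipocyte marker lower. It called 1 pericyte and smooth muscle marker and 1 macrophage and monocyte marker higher. It also called 1 endothelial marker higher on day 4 than on day 2. The part of these cells in the changes above was not tested.

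The course after surgery alone differed from that with an expander for many of these genes. The change from day 1 to day 2 differed between the arms for 521 genes (2.97% of those tested) and the change from day 1 to day 4 for 2342 (13.3%). Of the 22 ER genes, 10 differed in each, not all in the same direction. The EXP change was below the CTRL change for Atf4 on day 2 (log2 difference -1.12, edgeR adjusted p = 0.0287). On day 4 it was below for Atf4, Trib3 and Chac1 (-1.05, -2.17 and -3.45, edgeR adjusted p = 0.0129, 0.00324 and 0.00337). For the other ER genes that differed, the EXP change was above the CTRL change. Sdf2l1 had 123 ± 22.04 CPM on day 1 in CTRL (SD, n = 4) and 50.6 ± 15.3 in EXP (n = 5). On day 2 it had 37.96 ± 9.37 in CTRL and 54.7 ± 13.8 in EXP (n = 3 each), so the arms stood apart on day 1 and overlapped later. The EXP change exceeded the CTRL change by 1.81 ± 0.39 on the log2 scale (edgeR adjusted p = 0.0169). The ER list had medians of -0.09 and -0.41 within EXP, beside -0.83 and -0.53 within CTRL.

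Within EXP, 2.63% of genes tested were called on day 2 and 19% on day 4. For F3, Postn and Rgs4 the arms moved in opposite directions on day 2. F3 went from 43.1 ± 29.5 to 163 ± 76.4 CPM in EXP (SD, n = 5 and 3) and from 83.2 ± 19.7 to 9.62 ± 1.49 in CTRL (SD, n = 4 and 3), and the log2 changes differed by 5.03 ± 0.73 (edgeR adjusted p = 0.00159). Postn went from 208 ± 64.9 to 620.5 ± 134 CPM in EXP and from 557 ± 292 to 104 ± 54.1 in CTRL (SD, n as above), a difference of 4.00 ± 0.63 (edgeR adjusted p = 0.00224). Lif rose over the days in CTRL and fell in EXP. On day 1 it had 191 ± 49.4 CPM in EXP (SD, n = 5) beside 19.3 ± 3.03 in CTRL, and on day 4 68.4 ± 18.9 (n = 3) beside 76.6 ± 41.95 (n = 4). Its day 4 change differed by -3.47 ± 0.47 between the arms (edgeR adjusted p = 0.0003). Neb rose in both arms by day 4, by 4.25 in CTRL and 4.30 in EXP, and a difference between the arms was not detected (edgeR adjusted p = 0.975). Mitosis genes differed between the arms as well: their medians were 3.95 and 5.31 within EXP and -1.75 and -1.34 within CTRL, and all 28 differed on day 4.

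**Figure D5:**
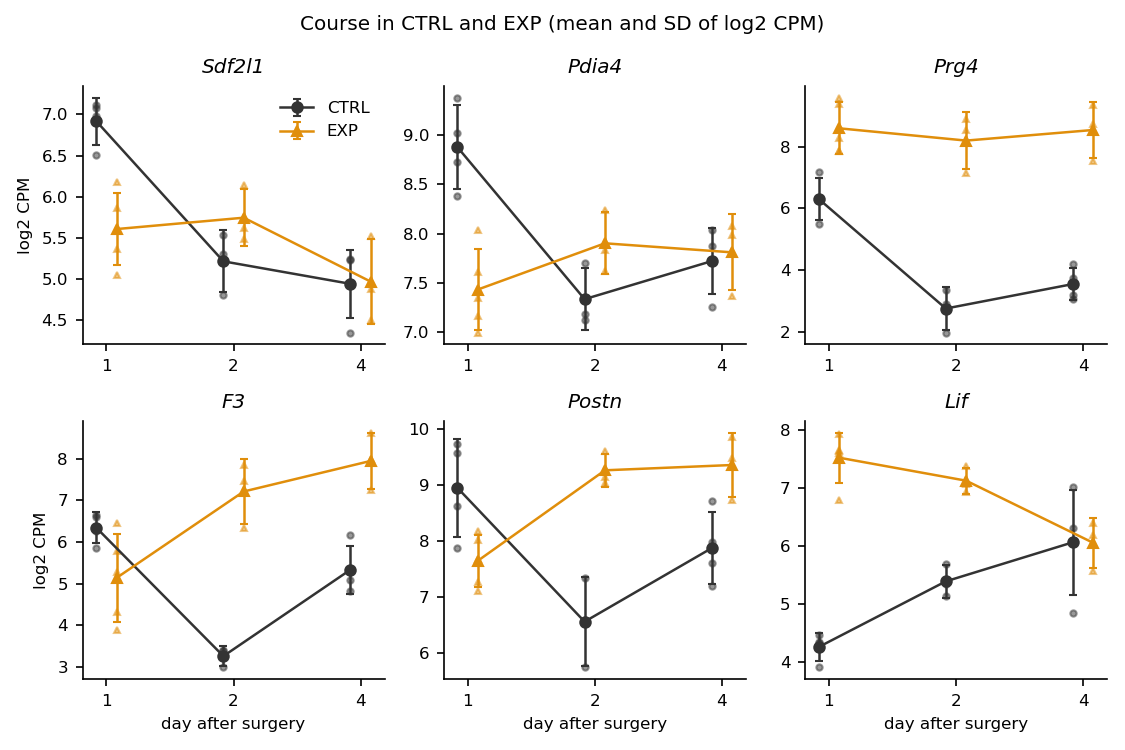
Log2 CPM of 6 genes by day after surgery in CTRL (circles) and EXP (triangles), as single libraries (small symbols) and as mean and SD (large symbols, bars). CTRL falls for Sdf2l1, Pdia4, Prg4, F3 and Postn between days 1 and 2, where F3 and Postn rise in EXP and the EXP differences of the other 3 did not pass, and Lif rises in CTRL and falls in EXP by day 4.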

How the data were processed

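RNA sequencing of sorted skin fibroblasts gave 22 libraries, 11 of them CTRL. The deposited table holds whole-number counts per gene, made by the authors for 55414 genes. Per the submitters' processing notes, Trimmomatic and build mm39 were used, and the aligner, the counter, its annotation and its use of strand are not given in the sources used here. Symbols came from GENCODE M21 and covered 52081 genes. Groups came from the labels, and no column was left without a sample. The members and gene lists were chosen with earlier results of these data known.

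Counts were fitted with edgeR 4.0.16 (quasi-likelihood F-test, robust, TMM) in R 4.3.3 over all 22 libraries with a mean per group, which leaves 16 residual degrees of freedom. Genes passed filterByExpr with a minimum count of 10, leaving 17554. Contrasts were taken between days within CTRL, jointly over the days, and between the arms, and p-values were adjusted by Benjamini-Hochberg over all tested genes, with a threshold of 0.05. The standard error is the log2 fold change divided by the root of F. Fitting was tested on simulated data. Log2 CPM used a prior count of 2. Alternatives used DESeq2 1.42.0, limma 3.58.1, other scalings, filters and subsets. Genes were named by a rule: the 25 smallest joint p among called genes of at least 1 CPM, for each pair of days the 8 largest rises and the 8 largest falls among called genes of at least 5 CPM without overlap, the sort markers and 3 collagens, and in each list the called members or, with none, the 2 smallest joint p. Totals ranged from 21461294 to 27540738 counts in CTRL, and pairs of replicates differed by more than sampling noise.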

Additional observations from a re-analysis of the deposited data

Results flagged for a closer look

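Single libraries stood apart from the rest of their day in 14 of 208 groups of values examined, where chance flags about 1 in 20. Creld2 had 177.1 CPM in day 1 replicate 2, beside 254.7 to 263.9 in the other day 1 libraries. In the same library Pkdcc had 5.297 CPM and the summed YAP and TAZ targets 4004 CPM, and day 1 replicate 3 had 4.438 CPM of Ypel4, each above the others. In day 4 replicate 3, Mir6236 had 124.5 CPM, St13 85.43 and AW551984 2.934, below the other day 4 libraries, and the summed Wnt pathway genes had 1272 CPM, above them. In day 4 replicate 4, Chl1 had 72.55 CPM and Pkdcc 23.85, above the others. Day 4 replicate 2 had the lowest summed collagens, 215400 CPM, and general fibroblast markers, 246400 CPM, and the lowest shares of the 3 main collagens, 20.62%, and of the 50 most abundant genes, 40.93%.

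The change over days differed between EXP and CTRL by edgeR's quasi-likelihood test of the difference (adjusted p under 0.05) for the following genes, given as the EXP change minus the CTRL change in log2. Among ER and HSP90 genes the differences on day 2 were 1.26 for Creld2, 1.81 for Sdf2l1, 2.01 for Pdia4, 1.78 for Pdia6, 1.59 for Hsp90b1, 1.29 for Fkbp4 and 1.18 for Stip1. On day 4 they were 0.94 for Creld2, 1.33 for Sdf2l1 and 1.08 for Fkbp4. These ER and HSP90 values are for comparisons called in CTRL. Atf4, Trib3 and Chac1, not called in CTRL, differed in the other direction, as given above. Other genes that fell in CTRL differed on day 2 by 4.46 (Fhl2), 3.15 (Prg4), 2.26 (Arhgdib), 3.92 (Fmo2), 5.03 (F3), 4.34 (Fzd4), 4.56 (Rgs4) and 4.0 (Postn), and on day 4 by 1.38 (Fmo1), 2.75 (Prg4), 1.37 (Bcat2) and 1.06 (Mrps12). Genes that rose in CTRL differed on day 2 by -1.82 (Gm43311), -2.32 (Ubash3b), -2.18 (Itga2b) and -1.99 (Tac1), and on day 4 by -3.47 (Lif), -2.3 (Ubash3b), -1.27 (Pkdcc), -1.87 (Smim3), -1.34 (Rps6ka3) and -0.94 (Abi3bp).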

How the results depend on the processing

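Joint calls, 51 as reported, came to 525 with DESeq2, 163 with library totals, 602 with limma voom, 326 with CTRL libraries alone, 29 with the library split as a covariate and 7 on its low side. Day 2 calls, 52 as reported, came to 484, 169, 719, 343, 3 and 0 in the same order. Day 4 calls, 23 as reported, came to 390, 39, 399 and 249 in the first 4 of these, to 37 without a filter, and to 3 and 0 on the low and high sides of the split. Day 4 against day 2, with 1 call, gave 16 with DESeq2, 5 with CTRL libraries alone, 4 on the low side and 0 without a filter. Leaving out each library in turn gave 5 to 92 joint calls, 0 to 67 day 2 calls, 2 to 68 day 4 calls and 0 to 1 calls between day 4 and day 2. The cause of these differences was not tested.

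Replicate numbers are shared between days, but same-numbered libraries did not deviate together (correlations -0.213 to 0.122). With the replicate number as a block there were 19 joint, 28 day 2, 6 day 4 and 0 day 4 against day 2 calls, and 16 of the 51 joint calls remained.

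Of 2226 values of single genes under alternatives, 1568 kept their side of the threshold and 658 lost it. Where either fit made a call, 0 changed direction. Values called in neither fit count as kept, and some of them changed sign. The day 4 difference of Pecam1 from day 1, for example, ranged from -1.18 to 1.22. Of 2196 list medians, 113 moved and 8 changed sign: with library totals, NF-kB targets (-0.0181) and YAP and TAZ targets (-0.0504) on day 2 and ribosome biogenesis on day 4 (-0.006), without day 1 replicate 3, collagen processing on day 2 (0.0715, with a range of -0.341 to 0.0715 over single libraries left out), with the split as a covariate, matricellular genes on day 4 (0.0217) and the IGF axis on day 2 (0.1534), and on the low side, mitosis genes on day 4 (0.1069) and the IGF axis on day 2 (0.1958). Genes near the 3-count floor have no measurable fold beyond a bound.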
